A study of Mus musculus with 24 samples.

Results

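The 10 genes described here carry out the synthesis, storage, uptake and breakdown of catecholamines: Th, Ddc, Dbh, Pnmt, Gch1, Cyb561, Slc18a1, Slc18a2, Slc6a2 and Maoa. They were taken by symbol from the 21833 protein-coding genes of the deposited mouse table, and each symbol matched 1 row. Poly(A) RNA of 24 mouse samples had been sequenced to compare adrenal glands with neuroblastoma tumors. AG were adrenal glands of mice with genotype CRE - (n = 3). AGM were tumor-free adrenal glands of mice with genotype MYCN +/-, CRE + (n = 5). TI were neuroblastoma tumors of IGF2BP1, CRE + mice (n = 8, of which 1 was labelled +/- and 7 were labelled +/+), 1 of them labelled as an adrenal gland tumor. TIM were neuroblastoma tumors with genotype IMP1/MYCN, CRE + (n = 8), where IMP1 is another name of IGF2BP1, with 2 adrenal gland tumors and 1 spine tumor by label.

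The IGF2BP1 and MYCN transgenes sat at the Rosa26 locus, lacked their native 3' untranslated regions and were switched on by an iCre under the Dbh promoter, that is, in cells that turn on one of the 10 genes described here. AG lacked that driver and AGM, TI and TIM carried it. The labels give no age, and nothing in them says that samples of a group came from separate animals, so p-values measure only the spread between these samples. The authors report that MYCN mice were culled later than homozygous IGF2BP1 mice, and that IGF2BP1/MYCN mice had a shorter median survival than the latter. Age and group can therefore not be told apart among AGM, TI and TIM. The columns of the table carry group names whose suffixes do not match the sample titles. Libraries are therefore named by group and column order (TI-6 is the sixth TI column), and the zygosity, location and sequencing run of a column are not known. By label, AG was sequenced in run 1, AGM in run 2, TI in run 1 (6), run 2 (1) and run 3 (1), and TIM in run 2 (3) and run 3 (5). Since AG shares no run with AGM or with TIM, run and group cannot be told apart when either is compared with AG, and no value could be given within a run. Run 1 held 6 TI tumors but no TIM tumor and no AGM gland, so run also went with group when TI was compared with either.

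Catecholamines are made from tyrosine in a short chain of enzymes. Tyrosine hydroxylase (Th) makes L-DOPA in the rate-limiting step and needs tetrahydrobiopterin, whose synthesis begins with GTP cyclohydrolase 1 (Gch1). DOPA decarboxylase (Ddc) turns L-DOPA into dopamine, dopamine beta-hydroxylase (Dbh) turns dopamine into noradrenaline inside the granule with electrons passed in by cytochrome b561 (Cyb561), and phenylethanolamine N-methyltransferase (Pnmt) turns noradrenaline into adrenaline. The vesicular monoamine transporters VMAT1 (Slc18a1) and VMAT2 (Slc18a2) load the granules. The noradrenaline transporter (Slc6a2) takes released amine back into the cell, the route by which the tracer MIBG enters neuroblastoma cells, and monoamine oxidase A (Maoa) degrades it. Chromaffin cells of the adrenal medulla make adrenaline under the influence of cortical glucocorticoids, whereas sympathetic neurons stop at noradrenaline.

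Among the RefSeq promoters (GRCm38.p6, 250 bases before to 50 bases after the annotated start), 6 of the genes had an entry, namely Th, Ddc, Dbh, Gch1, Slc18a2 and Maoa. Both strands were searched for the cAMP response element TGACGTCA, the E-boxes CACGTG and CANNTG (the first is one form of the second), the GATA motif AGATAA, the GC box GGGCGG and the TATA box TATAAA. The cAMP response element was found in the windows of Th and Slc18a2 and in 1.79% of all 32851 promoter windows of that length. It began at base -45 from the start in Th and at base -4 in Slc18a2. These sequences are shown because they set the first enzyme of the chain and the transporter with the largest fold change in TI side by side with Dbh, whose promoter drove the Cre, and with Maoa, the degrading enzyme, which fell in AGM. Capitals mark cAMP response elements and GC boxes.
Th (chr7:142899946-142900245, minus strand): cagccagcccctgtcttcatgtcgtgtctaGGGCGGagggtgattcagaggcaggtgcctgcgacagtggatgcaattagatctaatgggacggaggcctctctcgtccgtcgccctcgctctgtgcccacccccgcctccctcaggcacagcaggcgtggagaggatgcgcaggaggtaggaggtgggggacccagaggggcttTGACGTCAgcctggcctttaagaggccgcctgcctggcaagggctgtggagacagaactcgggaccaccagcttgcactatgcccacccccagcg
Slc18a2 (chr19:59260628-59260927, plus strand): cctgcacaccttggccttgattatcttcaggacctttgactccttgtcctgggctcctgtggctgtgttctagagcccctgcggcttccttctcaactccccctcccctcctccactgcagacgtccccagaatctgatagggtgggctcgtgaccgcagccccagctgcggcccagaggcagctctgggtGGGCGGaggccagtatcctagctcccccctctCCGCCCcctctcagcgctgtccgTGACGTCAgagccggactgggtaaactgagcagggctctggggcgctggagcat
Dbh (chr2:27165257-27165556, plus strand): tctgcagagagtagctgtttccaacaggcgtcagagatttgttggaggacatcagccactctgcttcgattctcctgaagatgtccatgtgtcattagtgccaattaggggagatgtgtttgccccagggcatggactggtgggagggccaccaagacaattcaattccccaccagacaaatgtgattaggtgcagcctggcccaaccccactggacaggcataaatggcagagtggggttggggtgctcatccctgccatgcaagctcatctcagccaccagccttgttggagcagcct
Maoa (chrX:16619448-16619747, plus strand): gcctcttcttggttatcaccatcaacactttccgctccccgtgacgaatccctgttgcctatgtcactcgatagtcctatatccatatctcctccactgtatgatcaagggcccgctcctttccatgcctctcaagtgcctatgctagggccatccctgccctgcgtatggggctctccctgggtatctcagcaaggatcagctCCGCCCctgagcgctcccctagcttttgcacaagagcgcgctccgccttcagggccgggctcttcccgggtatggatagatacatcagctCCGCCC
GC boxes, found in 35.66% of all windows, were present in Th, Gch1, Slc18a2 and Maoa. No capitals appear in the Dbh window, which held only E-boxes of the form CANNTG, a motif of 72.31% of all windows. The E-box CACGTG, present in 7.15% of all windows, was in none of the members' windows. The GATA motif (11.18% of all windows) was found in Slc18a2, and the TATA box (13.62%) in Gch1 and in 1 of the 2 windows of Ddc. A match is a run of letters and says nothing about binding in these samples.

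Expression is given as FPKM (fragment counts divided by gene length and by library size), which allows levels of different genes to be compared. Fold changes are differences of mean log2(FPKM + 1) and understate the change of low genes. They were tested with limma over the 10171 genes that reached 1 FPKM in 3 or more libraries, at a false discovery rate (FDR) below 0.05. All 10 genes passed that filter. Between 12334076 and 23683176 reads per library stood behind the values, outside 126 genes with a value above 1000 FPKM in any library. Th in TIM was one of these genes. With these genes included, the totals after the authors' batch correction were 116740738 to 1170004708 in AGM and 58530450 to 888626365 in TIM, against 12468968 to 21353172 in AG and TI, so some genes of AGM and TIM carry very large corrected values. The part of the correction in the levels of AG and in the fold changes of AGM and TIM was not tested. The median log2 fold change of all tested genes lay between -0.0049 and 0.033 in all 6 group comparisons.

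The markers of the tissues moved with the groups, and in whole glands and tumors fewer cells of a type and less RNA per cell cannot be told apart. The summed level of 10 adrenal cortex markers was 707 to 731 FPKM in AG, 4370 to 5468 FPKM in AGM, 1.11 to 16.7 FPKM in TI and 1.79 to 13.1 FPKM in TIM. Steroidogenic markers were close to absent from the tumors, where Star reached at most 1.69 FPKM in TI and 0.510 FPKM in TIM, and Cyp11a1 at most 0.432 FPKM. Up to 7 of the 10 cortex markers were at 0 in a TI library and up to 6 in a TIM library. The summed level of 9 chromaffin and sympathoblast markers was 119 to 170.5 FPKM in AG, 1053 to 1784 FPKM in AGM, 220 to 1312 FPKM in TI and 206 to 2193 FPKM in TIM. Adipocyte markers summed to 50.8 to 228 FPKM in AG and to at most 36.1 FPKM in the tumors. Of 6 markers each, against AG, those of endothelium were lower for 3 in TI and 6 in TIM, of Schwann and sustentacular cells for 2 and 1, of macrophages for 1 and 2, and of fibroblasts for 3 and 3, with 1 fibroblast marker higher in each. Both the cortex sum and the chromaffin sum were thus higher in AGM than in AG, and the part of tissue makeup in the results below was not tested.

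The tumors and the AGM glands were each compared with AG. Most tumors were not labelled as adrenal gland tumors, so tumor and site cannot be told apart in any comparison with glands. In TI, 3 of 10 genes rose (Ddc, Dbh and Slc18a2) and none fell, beside 24.6% of all tested genes that rose and 27.7% that fell. In TIM, 5 of 10 rose (Th, Ddc, Dbh, Slc18a1 and Slc18a2) and none fell, beside 22.5% and 28.5% of all tested genes. In AGM, 4 of 10 rose (Th, Dbh, Pnmt and Slc18a1) and Maoa fell, beside 14.6% and 14.0% of all tested genes. In AG, the median levels ran from Dbh (15.3 FPKM), Th (15.2 FPKM) and Cyb561 (10.8 FPKM) over Maoa, Gch1, Ddc, Pnmt and Slc6a2 to Slc18a2 (0.627 FPKM) and Slc18a1 (0.422 FPKM), and the ranges of Dbh, Th and Cyb561 overlapped. In TI, Th (95.7 FPKM) and Dbh (87.2 FPKM) led and Pnmt (0.477 FPKM) was last, and in TIM, Th (383 FPKM) and Dbh (109 FPKM) led and Slc6a2 (0.375 FPKM) was last. In AGM, Pnmt (245 FPKM) and Th (205 FPKM), whose ranges overlapped, were first. Dbh was the member that passed the test in all 3 comparisons, which share the AG libraries. After rescaling outside the genes above 1000 FPKM, all 5 calls of AGM and 4 of the 5 calls of TIM were kept, which does not address the corrected values of the 10 genes themselves.

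**Figure D1:**
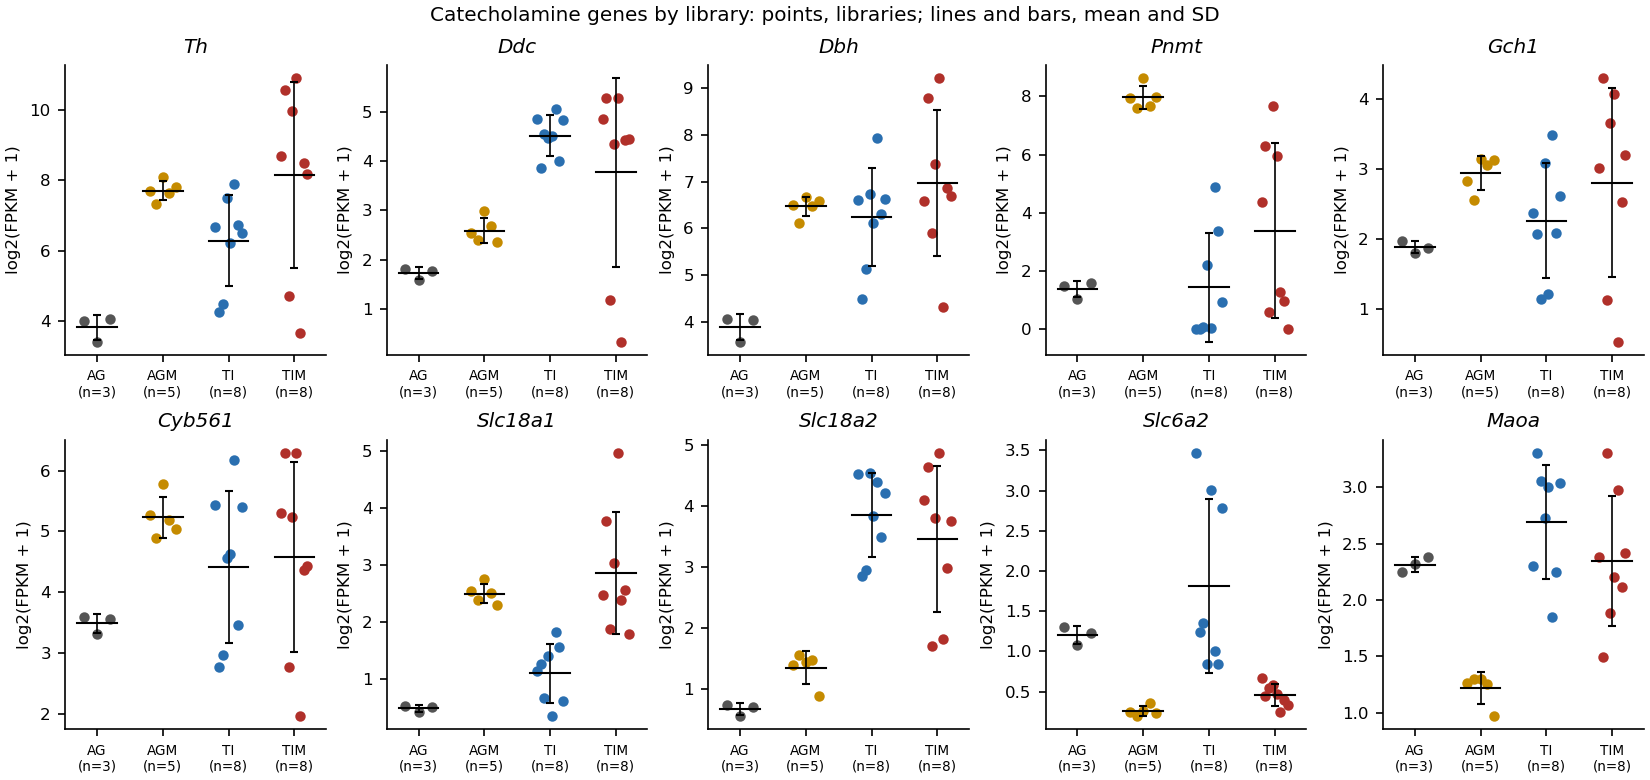
Level of each of the 10 genes as log2(FPKM + 1), with 1 point per library, a line at the group mean and bars of 1 SD (AG n = 3, AGM n = 5, TI n = 8, TIM n = 8; each panel has its own axis). Pnmt was high in all 5 AGM libraries, Slc18a2 in all 16 tumors lay above both gland groups, and Slc6a2 in every TIM tumor lay below every TI tumor.

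Th (ENSMUSG00000000214, GRCm39 chromosome 7, 142443466 to 142484865, minus strand) stood at 15.2, 9.72 and 15.6 FPKM in AG-1 to AG-3. The AGM glands gave 205, 159, 269, 197 and 224 FPKM. TI tumors ranged from 18.1 FPKM over a median of 95.7 FPKM to 235 FPKM. TIM tumors ranged from 11.8 FPKM over a median of 383 FPKM to 1889 FPKM, so the highest TIM tumor had 161 times the level of the lowest. Every TI tumor and every AGM gland lay above every AG gland, whereas TIM-6 lay within the range of AG. The log2 fold change against AG was 4.31 ± 1.12 in TIM (SE; limma FDR 0.00258) and 3.87 ± 1.21 in AGM (SE; limma FDR 0.0192). In TI the median level was 6.31 times that of AG, but the log2 fold change of 2.45 ± 1.12 (SE) did not pass (limma FDR 0.0700). That value passed without TI-2 (limma FDR 0.0459) or when only TI and AG entered the fit (limma FDR 0.0136). The AGM call was lost without any one of the 3 AG libraries (limma FDR 0.0510 to 0.0717). At more than 1000 FPKM in TIM-2 and TIM-5, Th belonged to the genes left out when the scaling was recomputed.

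Dbh (ENSMUSG00000000889, chromosome 2, 27055245 to 27074212, plus strand) was at 15.7, 10.9 and 15.3 FPKM in AG, much like Th. It stood at 89.9, 68.5, 100.5, 88.9 and 94.5 FPKM in AGM. The tumors gave 21.5, 87.2 and 246 FPKM as lowest, median and highest in TI and 18.8, 109 and 593 FPKM in TIM. None of these 3 groups overlapped with AG. The log2 fold change was 2.36 ± 0.72 in TI (SE; limma FDR 0.00837), 3.08 ± 0.72 in TIM (SE; limma FDR 0.00102) and 2.58 ± 0.77 in AGM (SE; limma FDR 0.0155). Without AG-2 the AGM call was lost (limma FDR 0.0641). Reads of a transgene that holds Dbh sequence cannot be separated from those of the gene in this table.

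Ddc (ENSMUSG00000020182, chromosome 11, 11762602 to 11848150, minus strand) was higher in all TI tumors and in 6 TIM tumors than in every gland. It stood at 2.52, 2.02 and 2.43 FPKM in AG and at 4.79, 4.29, 6.96, 5.40 and 4.12 FPKM in AGM. All 8 TI tumors lay between 13.6 and 32.0 FPKM, around a median of 22.0 FPKM. In TIM, 6 tumors lay between 19.3 and 37.8 FPKM, and TIM-3 and TIM-6 lay below every AG gland, at 1.26 and 0.271 FPKM. Ddc rose by 2.78 ± 0.74 on the log2 scale in TI (SE; limma FDR 0.00311) and by 2.04 ± 0.74 in TIM (SE; limma FDR 0.0252). In AGM the log2 fold change of 0.86 ± 0.80 (SE) missed the threshold (limma FDR 0.450), although all AGM glands lay above all AG glands. It passed with only AGM and AG in the fit (limma FDR 0.00160). The TIM call was lost without any one of the 3 AG libraries (limma FDR 0.0627 to 0.0788), with a pseudocount of 0.1 FPKM (0.0619), with only TIM and AG in the fit (0.133), after rescaling to genes below 1000 FPKM (0.0721) and with voom on recovered reads (0.126).

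Pnmt (ENSMUSG00000038216, chromosome 11, 98277276 to 98279032, plus strand), the adrenaline-forming enzyme, had the largest fold change against AG among the 10 genes. It was at 1.78, 1.07 and 2.01 FPKM in AG, or 130 to 246 reads. The AGM glands gave 245, 192, 392, 202 and 254 FPKM. The log2 fold change was 6.59 ± 1.45 (SE; limma FDR 0.00161), and the median was 137 times that of AG. By label AG was all in run 1 and AGM all in run 2, and the part of the batch correction in either level was not tested. In TI, Pnmt was at 0.00713 to 28.8 FPKM, with 0.477 FPKM as median and a single read in the lowest tumor. TI-1, TI-2, TI-3 and TI-5 held at most 0.0519 FPKM, whereas TI-6 and TI-7 held 28.8 and 9.34 FPKM. In TIM it ranged from 0 FPKM in TIM-8 to 204 FPKM in TIM-4, around a median of 10.6 FPKM. Only TIM-4 entered the range of the AGM glands. Neither tumor group passed against AG (log2 fold changes of 0.07 ± 1.35 and 2.02 ± 1.35, SE; limma FDR 0.9999 and 0.219). The 95% interval of the TI value, -2.72 to 2.85, left room for changes in both directions.

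The genes that supply cofactor and electrons did not pass against AG in any group. Gch1 (ENSMUSG00000037580, chromosome 14, 47391346 to 47426915, minus strand) was at 2.47 to 2.93 FPKM in AG and 4.91 to 7.80 FPKM in AGM. In TI it ranged from 1.195 to 10.2 FPKM and in TIM from 0.442 to 18.7 FPKM, with medians of 3.71 and 7.64 FPKM. Cyb561 (ENSMUSG00000019590, chromosome 11, 105824522 to 105844162, minus strand) stood at 8.94 to 11.1 FPKM in AG, 28.7 to 54.2 FPKM in AGM, 5.79 to 71.0 FPKM in TI and 2.90 to 77.7 FPKM in TIM. All AGM glands were above all AG glands for both genes, yet the log2 fold changes of 1.06 ± 0.65 for Gch1 and 1.75 ± 0.82 for Cyb561 (SE) missed the threshold (limma FDR 0.233 and 0.117). With only AGM and AG in the fit, both passed (limma FDR 0.000460 and 0.000207). Gch1 also passed in TIM vs AG without TIM-6 (limma FDR 0.0482). The tumors of both models lay on both sides of AG.

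The vesicular transporters changed in different groups. Slc18a2 (VMAT2, ENSMUSG00000025094, chromosome 19, 59249238 to 59284695, plus strand), the main form of neurons, was at 0.676, 0.476 and 0.627 FPKM in AG and at 1.63, 1.94, 1.73, 1.79 and 0.846 FPKM in AGM. TI tumors gave 6.22, 15.4 and 22.2 FPKM as lowest, median and highest, and TIM tumors 2.27, 12.7 and 28.3 FPKM. All 16 tumors lay above all 8 glands. Slc18a2 rose by 3.18 ± 0.53 on the log2 scale in TI (SE; limma FDR 2.5e-05) and by 2.79 ± 0.53 in TIM (SE; limma FDR 0.000122). The AGM value of 0.68 ± 0.57 (SE) missed the threshold (limma FDR 0.396) and passed with only AGM and AG in the fit (limma FDR 0.00496).

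Slc18a1 (VMAT1, ENSMUSG00000036330, chromosome 8, 69490135 to 69541887, minus strand), a form of neuroendocrine cells, was at 0.431, 0.329 and 0.422 FPKM in AG. It stood at 4.83, 4.22, 5.69, 4.67 and 3.88 FPKM in AGM, a gain of 2.01 ± 0.49 on the log2 scale (SE; limma FDR 0.00359). TIM tumors ranged from 2.43 over 4.70 to 30.2 FPKM, all above AG, and Slc18a1 rose by 2.37 ± 0.45 (SE; limma FDR 0.000132). TI tumors ranged from 0.271 over 1.29 to 2.53 FPKM, and the log2 fold change of 0.61 ± 0.45 (SE) did not pass (limma FDR 0.269).

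Slc6a2 (ENSMUSG00000055368, chromosome 8, 93686707 to 93728295, plus strand) was highest in single TI tumors. It was at 1.46, 1.11 and 1.34 FPKM in AG and at 0.19, 0.15, 0.20, 0.28 and 0.17 FPKM in AGM, where 87 to 155 reads stood behind each value. TI-1, TI-5 and TI-8 held 10.1, 7.03 and 5.87 FPKM, and the other 5 TI tumors 0.792 to 1.57 FPKM. All 8 TIM tumors lay between 0.185 and 0.585 FPKM. AGM and TIM thus lay below AG without overlap, and the ratio of medians to AG was 0.143 in AGM and 0.280 in TIM. The log2 fold changes of -0.94 ± 0.45 in AGM and -0.74 ± 0.41 in TIM (SE) missed the threshold (limma FDR 0.119 and 0.141). Both passed as lower with a pseudocount of 0.1 FPKM (limma FDR 0.0104 in AGM and 0.0242 in TIM), with only the 2 groups in the fit (1.27e-05 and 6.13e-05), after rescaling to genes below 1000 FPKM (0.00548 and 0.0242) and with voom on recovered reads (0.0206 and 0.0323). In TI the log2 fold change was 0.62 ± 0.41 (SE; limma FDR 0.222).

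Maoa (ENSMUSG00000025037, chromosome X, 16485893 to 16554057, plus strand), the degrading enzyme, was at 3.76, 3.98 and 4.20 FPKM in AG. It was at 1.41, 1.47, 1.46, 1.39 and 0.963 FPKM in AGM and fell, with a log2 fold change of -1.10 ± 0.32 (SE; limma FDR 0.0138). The groups did not overlap, and without AG-3 the call was lost (limma FDR 0.0514). TI tumors ranged from 2.60 over 6.32 to 8.91 FPKM and TIM tumors from 1.81 over 3.91 to 8.87 FPKM, on both sides of AG. Neither tumor group passed (log2 fold changes of 0.38 ± 0.30 and 0.03 ± 0.30, SE; limma FDR 0.308 and 0.948).

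**Figure D2:**
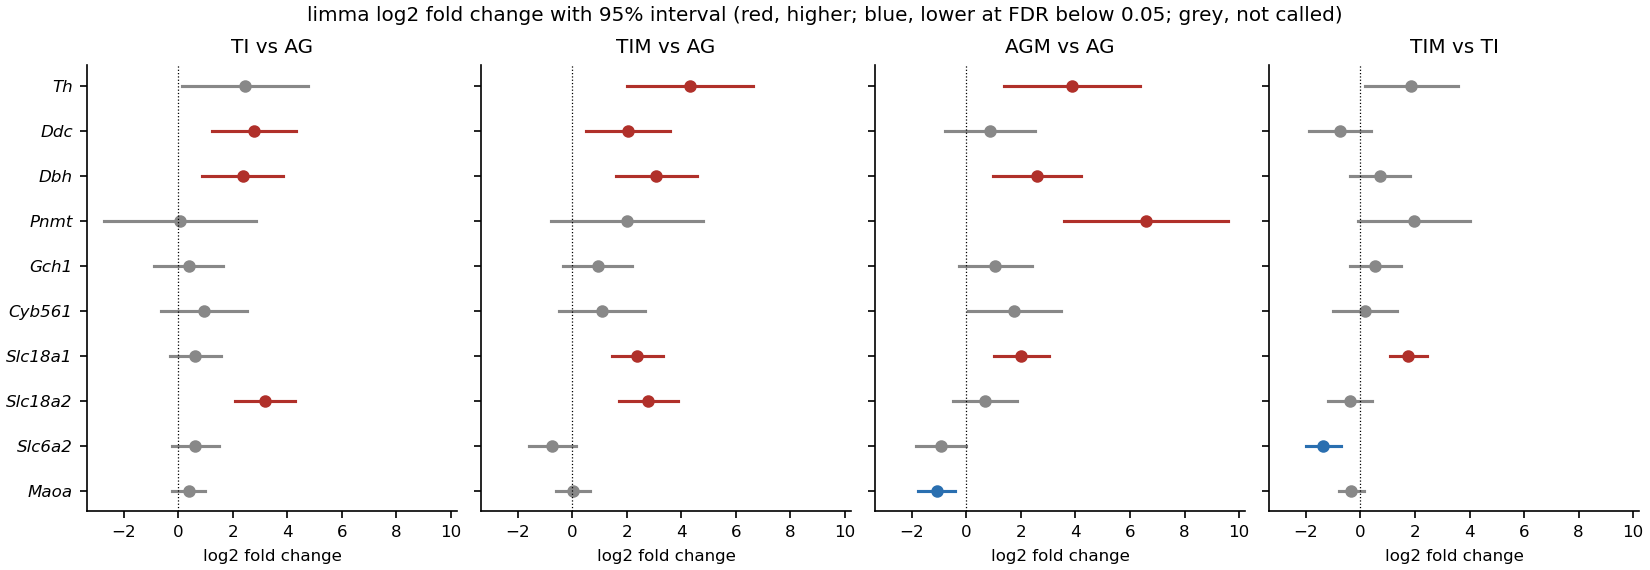
limma log2 fold change of each gene on the log2(FPKM + 1) scale with its 95% interval, for TI, TIM and AGM against AG and for TIM against TI; red marks genes called higher, blue genes called lower at an FDR below 0.05 and grey genes that were not called. Pnmt has the widest interval in each panel, and Slc18a1 and Slc6a2 were the genes called between the tumor models.

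The tumor models were compared directly. Both transgenes sit at the same locus and 7 of 8 TI tumors were IGF2BP1 +/+, so the MYCN transgene and the dose of IGF2BP1 cannot be told apart here. By label run 1 held 6 TI tumors and no TIM tumor, and the part of run, age or tumor site in the differences was not tested. In TIM vs TI, Slc18a1 was higher and Slc6a2 lower, and the other 8 genes did not pass, beside 10% of all tested genes called higher and 12.9% called lower. Slc18a1 was 1.76 ± 0.33 higher on the log2 scale (SE; limma FDR 0.000941), and 7 of 8 TIM tumors lay above every TI tumor. Slc6a2 was lower by 1.36 on that scale (SE 0.31; limma FDR 0.00351), and every TIM tumor lay below every TI tumor. Both calls held without each tumor in turn. Th was 1.86 ± 0.83 higher (SE; limma FDR 0.106), with 6 of 8 TIM tumors above every TI tumor, and passed without TIM-3 (limma FDR 0.0307) or without TIM-6 (limma FDR 0.0116). For Dbh the 95% interval of the difference ran from -0.37 to 1.83, and for Slc18a2 from -1.20 to 0.42, so changes of either sign remained possible.

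The tumors were also compared with the AGM glands, which carried the driver and the MYCN transgene. TIM had higher Slc18a2 (2.11 ± 0.44, SE; limma FDR 0.000291) and Maoa (1.13 ± 0.25, SE; limma FDR 0.000502) and lower Pnmt (-4.57 ± 1.13, SE; limma FDR 0.00134), beside 31.9% and 33.4% of all tested genes that were higher and lower. Slc18a2 and Maoa in all 8 TIM tumors lay above all 5 AGM glands, and Pnmt in 7 of 8 lay below them. Th, Dbh and Slc18a1 did not pass between TIM and AGM, with log2 differences of 0.44, 0.50 and 0.36 (limma FDR 0.697, 0.477 and 0.415). Ddc was 1.18 ± 0.62 higher (SE; limma FDR 0.102) and passed without TIM-3 (limma FDR 0.0198) or TIM-6 (limma FDR 0.00395). TI had higher Ddc, Slc18a2, Slc6a2 and Maoa and lower Pnmt and Slc18a1 than AGM, 4 and 2 genes, beside 36.2% higher and 36.2% lower of all tested genes. TI and AGM differ in the IGF2BP1 and MYCN transgenes as well as in being tumor or gland and, for most tumors, in site. By label run 1 held 6 TI tumors and no AGM gland.

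Whether the step from gland to tumor differed was tested as the difference between TIM vs AGM and TI vs AG, which share no library. The steps differ in the MYCN transgene, in the Cre driver of the gland (absent from AG) and in the dose of IGF2BP1. Most tumors of either model were not labelled as adrenal gland tumors, so each step also mixes site with tumor. By label the steps also differ in sequencing runs, and none of these can be told apart. By limma, 0 of the 10 genes were called, beside 10% of all tested genes in either direction. At an unadjusted p below 0.05 there was 1, Pnmt, with a log2 difference of -4.64 ± 1.76 (SE; limma FDR 0.101), and voom on recovered reads also called 0. Pnmt passed without TIM-4 (limma FDR 0.0387). The 95% intervals of the other 9 genes included 0, from -5.04 to 1.01 for Th at the widest.

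Ratios between genes of one library do not depend on how that library was scaled, apart from the pseudocount, and compare the makeup of the pathway. They are not free of the authors' batch correction, which can move single genes. Its part in the ratios was not tested, and by label AG shares no run with AGM or TIM. In all, 13 ratios of (FPKM + 1) were compared in 6 contrasts by exact two-sided permutation tests, with Benjamini-Hochberg adjustment over 78 tests, of which 43 passed. With 3 AG and 5 AGM libraries the smallest p was 0.0179, and with 3 AG and 8 tumors it was 0.00606. The balance of the vesicular transporters set TI apart. The mean log2 ratio Slc18a2:Slc18a1 with its SD was 0.19 ± 0.04 for the 3 AG, -1.14 ± 0.23 for the 5 AGM, 2.76 ± 0.76 for the 8 TI and 0.61 ± 0.88 for the 8 TIM libraries. TI ranged from 1.60 to 3.61 and overlapped only with TIM-1 (1.62) and TIM-8 (1.98). The difference between TIM and TI was -2.15 (exact permutation test, adjusted p = 0.00673), and that between TI and AG was 2.57 (exact permutation test, adjusted p = 0.0206).

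The ratio Pnmt:Dbh, which sets the adrenaline-forming step against the noradrenaline-forming one, was highest in AGM. Its mean and SD were -2.52 ± 0.07 for AG, 1.49 ± 0.28 for AGM, -4.81 ± 1.33 for TI and -3.58 ± 2.28 for TIM. In TI-1, TI-2, TI-3, TI-5 and TIM-8 Pnmt held at most 0.0519 FPKM, so there the ratio was set almost wholly by Dbh. AGM was above AG by 4.01 (exact permutation test, adjusted p = 0.0338, at the smallest p this design allows), and TI was below AG by 2.29 (exact permutation test, adjusted p = 0.0338). The TI call was lost without TI-1, TI-3, TI-4, TI-5 or TI-8 (highest adjusted p of these 0.0591, exact permutation tests), without any one AG library (0.0825) and with a pseudocount of 0.1 FPKM (0.106). Without an AG library the test allows only larger p-values. The TIM tumors spread from -6.69 in TIM-8 to 0.30 in TIM-4 and did not pass against AG (adjusted p = 0.480, exact permutation test). The ratio Ddc:Th was -2.10 ± 0.24 in AG, -5.11 ± 0.22 in AGM, -1.77 ± 1.13 in TI and -4.37 ± 0.97 in TIM (SD). All 8 TIM tumors lay below all 8 TI tumors, a difference of -2.60 (exact permutation test, adjusted p = 0.00673). Levels of Ddc thus overlapped between the tumor models while its level per Th did not.

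Th, Dbh and Pnmt were also set against Chga, the major soluble protein of the granules. Its own level spread widely (12.6 to 926 FPKM in TI and 28.5 to 1266 FPKM in TIM). Chga did not pass against AG in TI or TIM (log2 fold changes of 0.03 and 1.60, limma FDR 0.9999 and 0.223). Of 11 granule genes, however, 4 rose and 1 fell in TI, and 6 rose and 1 fell in TIM. Scg5, for example, rose by 2.66 and 2.86. Ratios to other granule genes were not taken, so those below hold for Chga and not for granule-bearing tissue. Against AG, the log2 ratio Th:Chga was 2.43 higher in TI (exact permutation test, adjusted p = 0.0338) and 2.71 higher in TIM (adjusted p = 0.0206, exact permutation test). In AGM it was 0.17 higher and did not pass (exact permutation test, adjusted p = 0.174). Dbh:Chga was 2.33 higher in TI and 1.48 higher in TIM than in AG (exact permutation tests, adjusted p = 0.0338 and 0.0440). Dbh:Chga was 1.12 lower and Pnmt:Chga 2.89 higher in AGM than in AG (exact permutation tests, adjusted p = 0.0338 for each). Leaving out any one AG or AGM library lost every ratio call of AGM vs AG (lowest adjusted p 0.0518, exact permutation tests), and leaving out any one AG library lost those of TI and TIM vs AG. Fewer libraries allow only larger p-values in these tests, so such losses cannot show how firm the ratios are. Dbh:Chga was also lost in TI without TI-1, TI-2, TI-3, TI-4 or TI-5 and in TIM without TIM-1, TIM-2, TIM-5, TIM-7 or TIM-8. The differences named here kept their sign.

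**Figure D3:**
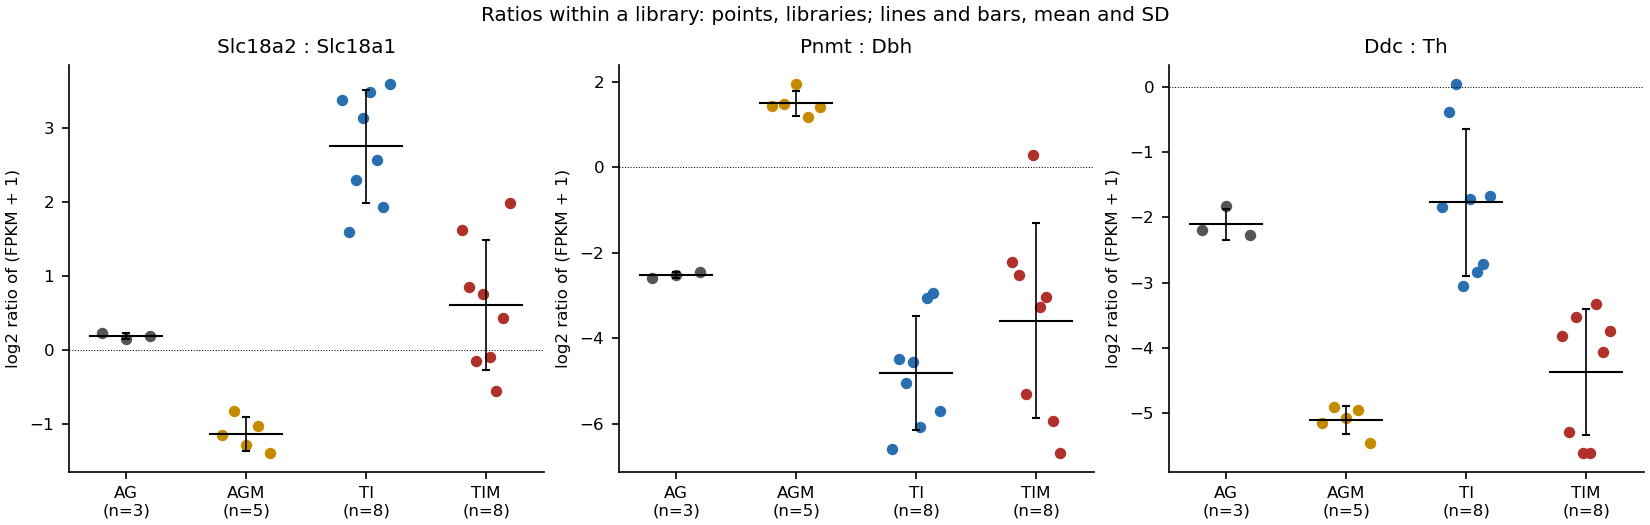
Log2 ratios of (FPKM + 1) within each library for Slc18a2:Slc18a1, Pnmt:Dbh and Ddc:Th, with 1 point per library, a line at the group mean and bars of 1 SD (AG n = 3, AGM n = 5, TI n = 8, TIM n = 8). The TI tumors lie highest for Slc18a2:Slc18a1, the AGM glands for Pnmt:Dbh, and all TIM tumors lie below all TI tumors for Ddc:Th.

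Single tumors of a model differed widely. The lowest Th levels in TI were those of TI-2 and TI-3, at 18.1 and 21.5 FPKM, and the other 6 tumors held 74.0 FPKM or more. In TIM, the lowest were TIM-3 and TIM-6, at 25.1 and 11.8 FPKM, and the other 6 held 290.5 FPKM or more. TIM-3 and TIM-6 also had the lowest Dbh, Ddc, Gch1, Cyb561 and Slc18a2 and the highest Maoa (8.87 and 6.90 FPKM) of the TIM tumors. TI-2 and TI-3 likewise had the lowest Dbh (21.5 and 33.9 FPKM) and Cyb561 (5.79 and 6.77 FPKM) and the highest Maoa (8.91 and 7.34 FPKM) of TI. The summed chromaffin and sympathoblast markers of these 4 tumors were 206 FPKM in TIM-3, 215 FPKM in TIM-6, 298 FPKM in TI-2 and 220 FPKM in TI-3, against medians of 382 FPKM in TIM and 312 FPKM in TI. Tumors outside these 4 also lay low, with 270 FPKM in TI-1 and 263 FPKM in TI-5, both below TI-2, and 246 FPKM in TIM-8. The part of these sums in the differences was not tested.

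The relation of Th with the other 9 genes was therefore taken within the 6 tumors of each model that lay together, for 18 relations in all. Dbh gave r = 0.864 in TI (Spearman's rho = 0.771; exact permutation p = 0.0111 and 0.103) and r = 0.938 in TIM (rho = 0.829; exact permutation p = 0.00556 and 0.0583). Slc18a1 in TIM had r = 0.930 (rho = 0.943; exact permutation p = 0.00278 and 0.0167), and Cyb561 in TIM r = 0.915 (rho = 0.829; exact permutation p = 0.0167 and 0.0583). Maoa gave r = -0.643 in TI and -0.633 in TIM (rho = -0.771 and -0.543; exact permutation p = 0.194 and 0.186 for r, and 0.103 and 0.297 for rho). After adjustment over the 18 relations 0 passed, with a lowest adjusted p of 0.05 (exact permutation test). With all 8 tumors of a model, 9 of 18 passed by Pearson's r. All 9 were lost with 6 tumors, which also allow only larger p-values, and r was then 0.388 (Cyb561 in TI) to 0.938 (Dbh in TIM) for the 8 positive ones. By Spearman's rho over all 8 tumors, Dbh passed in TI and TIM (rho = 0.905 and 0.929, adjusted p = 0.0137 and 0.0134, exact permutation tests). Maoa passed in TI but not in TIM (rho = -0.905 and -0.786, adjusted p = 0.0137 and 0.0503). Cyb561 passed in TIM but not in TI (rho = 0.929 and 0.643, adjusted p = 0.0134 and 0.115).

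**Figure D4:**
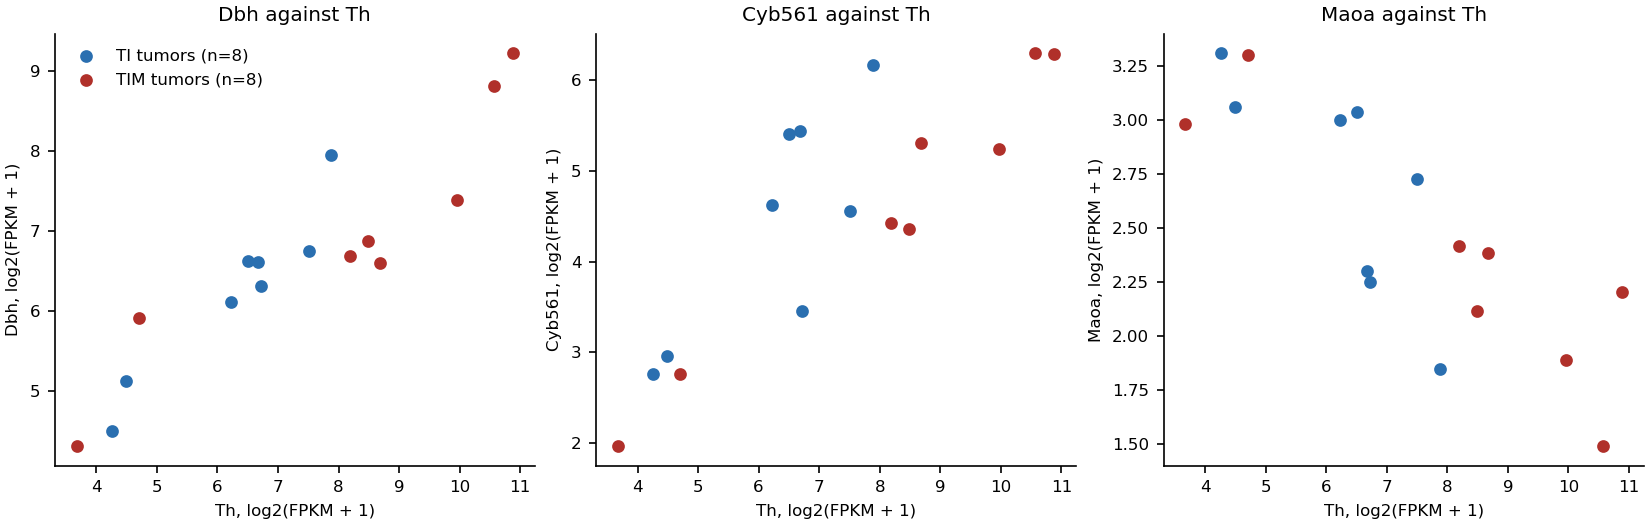
Level of Dbh, Cyb561 and Maoa against that of Th, as log2(FPKM + 1), with 1 point per tumor (TI n = 8, TIM n = 8). In each model 2 tumors lie apart at low Th, with low Cyb561 and high Maoa.

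The genes around the 10 members were counted by lists, with all tested genes as the background given above. Of 9 other genes of amine breakdown, 9 were lower in TI (median log2 fold change -1.12), 6 were lower in TIM (-1.05) and 3 were higher in AGM (0.50), each against AG. Aldh2, an aldehyde dehydrogenase of mitochondria, was at 75.4 to 84.1 FPKM in AG and at 0.361 to 3.03 FPKM in TI, and fell by 5.10 on the log2 scale (SE 0.36; limma FDR 5.24e-11), and by 4.27 in TIM (SE 0.36; limma FDR 1.19e-09). Aldh2 is also abundant outside catecholamine cells, and 9 of the 10 cortex markers fell in TI and in TIM along with it. In AGM, the sulfotransferase gene Sult1a1 rose by 1.43 (SE 0.48; limma FDR 0.0277) and Aldh1a1, another aldehyde dehydrogenase, by 0.90 (SE 0.33; limma FDR 0.0419).

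Tetrahydrobiopterin genes were split. Of 7, 1 rose and 3 fell in TI, 2 rose and 3 fell in TIM, and 4 rose and 1 fell in AGM (medians -0.44, -0.33 and 0.99). Pcbd1, which recycles the cofactor, rose in all 3, by 1.64 ± 0.52, 2.24 ± 0.52 and 2.37 ± 0.56 (SE; limma FDR 0.0110, 0.00102 and 0.00311). Its paralog Pcbd2 fell by 1.06 in TI (limma FDR 0.0366) and rose by 1.25 in AGM (limma FDR 0.0401). Spr, the last enzyme of its synthesis, fell by 0.91 in TI and by 0.76 in TIM (limma FDR 9.01e-05 and 0.000590) and rose by 0.56 in AGM (limma FDR 0.0237). Pts, the enzyme before it, fell by 0.75 in TI and by 0.68 in TIM (limma FDR 1.83e-07 and 7.64e-07). Qdpr, which regenerates the cofactor, rose by 1.03 in TIM and by 1.12 in AGM (limma FDR 0.0213 and 0.0354).

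Of 8 other amine transporters 4 passed the filter. In each of TI, TIM and AGM, 1 rose and 2 fell against AG. The plasma membrane monoamine transporter gene Slc29a4 rose by 1.12, 1.83 and 1.21 (limma FDR 0.00574, 5.46e-05 and 0.0125). The serotonin transporter gene Slc6a4 was at 6.77 to 10.2 FPKM in AG and fell by 3.04 in TI, 3.17 in TIM and 2.38 in AGM (limma FDR 4.76e-13, 1.98e-13 and 3.36e-10). Slc18b1, a vesicular polyamine transporter, fell by 0.80, 1.07 and 0.56 (limma FDR 2.3e-06, 2.8e-08 and 0.00119). Of 6 genes of precursor supply and other aromatic amino acid hydroxylases, 4 passed the filter. The heavy and light chains of a large neutral amino acid transporter, Slc3a2 and Slc7a5, fell in TI by 0.63 and 0.98 (limma FDR 0.0367 and 0.00325), and none passed in TIM.

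Of 14 adrenergic and dopamine receptors 5 passed the filter, and 2 rose and 1 fell in TI, 1 rose and 1 fell in TIM and 3 rose in AGM. Adra2c, an inhibitory autoreceptor on amine release, rose by 1.69 ± 0.34 in TI and 0.995 ± 0.34 in TIM (SE; limma FDR 0.000237 and 0.0181). Drd2, another inhibitory autoreceptor, rose by 0.46 in TI (limma FDR 0.0473), and Adra1d fell, with log2 fold changes of -1.10 in TI and -1.09 in TIM (limma FDR 9.17e-11 and 1.03e-10). Adrb3, a receptor best known from fat, held 1 to 6 reads in AG and 93.5 to 254 FPKM in AGM (limma FDR 5.93e-11), and Adra1b held 1 read in each AG library and 30.2 to 223 FPKM in AGM (limma FDR 1.15e-05). These values come after the authors' batch correction, and adipocyte markers summed to 122 to 316 FPKM in AGM and to 50.8 to 228 FPKM in AG, where the groups overlapped.

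Of 14 transcription factors of catecholaminergic cells, 7 rose and 1 fell in TI, 7 rose in TIM, and 3 rose and 1 fell in AGM (medians 1.73, 1.64 and 1.02). Isl1, needed for sympathetic neuron maturation, rose by 4.06 ± 0.33 in TI (SE; limma FDR 4.66e-10), and Tfap2b, a neural crest factor, by 2.89 ± 0.26 in TIM (SE; limma FDR 2.53e-09). In AGM, Hand1 rose by 4.04 ± 0.95 and Insm1, a factor of neuroendocrine cells, by 1.24 ± 0.40 (SE; limma FDR 0.00281 and 0.0245). Insm1 also rose by 2.71 in TI and by 2.26 in TIM (limma FDR 2.15e-06 and 2.40e-05). Nr4a2, an activator of the dopamine program in midbrain neurons, fell in TI by 0.67 and in AGM by 0.84 (limma FDR 0.0432 and 0.0358). Its AG levels spread from 0.165 over 1.44 to 3.96 FPKM, a range that held every AGM gland (0.221 to 0.478 FPKM) and overlapped with TI (0.110 to 1.29 FPKM).

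Of 11 granule proteins and processing enzymes, 4 rose and 1 fell in TI, 6 rose and 1 fell in TIM, and 7 rose in AGM (medians 1.13, 1.60 and 2.39). Pcsk1n, an inhibitor of prohormone convertase 1, rose by 2.53 ± 0.48 in TI and 3.26 ± 0.48 in TIM (SE; limma FDR 0.000128 and 6.01e-06), and the convertase gene Pcsk1 fell by 0.34 and 0.32 (limma FDR 0.0222 and 0.0328) but rose by 2.34 in AGM (limma FDR 1.15e-12). Scg5, a chaperone of prohormone convertase 2, rose by 2.66 ± 0.50 in TI (SE; limma FDR 9.86e-05), and by 2.86 in TIM and 2.39 in AGM (limma FDR 4.25e-05 and 0.00184). The granule peptide precursor Vgf rose by 5.58 ± 0.99 in TIM and 2.95 ± 1.07 in AGM (SE; limma FDR 5.86e-05 and 0.0423), and Chga by 3.71 ± 1.16 in AGM (SE; limma FDR 0.0203). Of 16 subunits of the proton pump that powers vesicular uptake, 6 rose and 1 fell in TI and in TIM, and 3 rose and 1 fell in AGM (medians 0.42, 0.61 and 0.45). Atp6v1b2 rose in all 3, by 1.61 ± 0.32, 2.98 ± 0.32 and 1.46 ± 0.35 (SE; limma FDR 0.000226, 6.18e-08 and 0.00325), and the neuronal subunit gene Atp6v1g2 by 1.42 ± 0.34 in TI and 1.54 ± 0.34 in TIM (SE; limma FDR 0.00123 and 0.000568). Atp6v0c rose by 0.83 in AGM (limma FDR 0.0362), and Atp6v1h fell by 0.59, 0.70 and 0.36 in TI, TIM and AGM (limma FDR 8.05e-05, 9.11e-06 and 0.0221).

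The 3 genes with the pattern most like that of Th, Dbh, Pnmt and Maoa were sought among 10062 candidate genes by Pearson correlation of log2(FPKM + 1) over the 24 libraries. These points share 4 groups and their runs, so the values describe the libraries and carry no test. Th was followed by Iffo1 (r = 0.959), Ptprn (0.956), which encodes a protein of the dense core granule membrane, and Pld3 (0.951). Dbh was followed by Lrrc24 (0.924), Gnptg (0.913) and Sgsm3 (0.909). Pnmt was followed by the homeobox gene Irx3 (0.943), Pdia2 (0.930) and Penk (0.918), which encodes the enkephalin precursor stored with adrenaline. Maoa was followed by Isoc1 (0.921), Nup54 (0.911), a gene of the nuclear pore, and Pxylp1 (0.902). Within the 8 TI tumors alone these 12 genes had correlations of 0.787 to 0.946 with their member, and within the 8 TIM tumors 0.741 to 0.984. The same tumors were among the 24 libraries by which the genes were chosen, so these values are no separate support.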

How the data were processed

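Poly(A) RNA-seq of 24 mouse samples was analysed. Per the submitters' processing notes, reads were trimmed with cutadapt 2.8, aligned to mm39 with HISAT2 2.1.0, handled with SAMtools 1.10, counted with featureCounts 2.0.0 and normalized with edgeR 3.40. The annotation is not given in the sources used here. The authors corrected the counts for batch with ComBat-seq and scaled them by TMM before they deposited FPKM values, with gene length as another column. ComBat-seq can move genes with few reads in a run far, and corrected totals of AGM and TIM far exceeded those of AG and TI. The table also holds the authors' log fold changes, p-values and FDR of AGM, TI and TIM against AG, which were not used.

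FPKM times length was a whole multiple of 1 read's worth for 100.0% of entries (tolerance 0.02), which returned corrected read numbers and relative depth. No 2 columns were identical. Read numbers cover counting error only.

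limma 3.58.1 in R 4.3.3 (lmFit, eBayes with trend) was run on log2(FPKM + 1) of genes that reached 1 FPKM in 3 or more libraries, in 1 fit of 4 groups without covariates, with Benjamini-Hochberg adjustment over all tested genes. Ratios and relations were computed in Python 3.11.15 with exact permutation tests. The code was tested on simulated data. Members, gene lists and tests were chosen with earlier results of these data known. The genes named are the 10 members, the 3 most alike genes of 4 members, tissue markers, and per pathway list up to 2 called genes in each direction with the largest fold change in each comparison with AG. Some genes that this rule names are not reported here. Alternatives were a pseudocount of 0.1 FPKM, other filters, fits of 2 groups, rescaling outside genes above 1000 FPKM, voom on recovered reads and leaving out each library. Gene positions come from GENCODE M39 on GRCm39 and promoters from RefSeq on GRCm38.p6, and the 2 builds were kept apart.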

Additional observations from a re-analysis of the deposited data

Results flagged for a closer look

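In 6 of 30 sets of a gene in a group, 1 library lay far from the others by Dixon's test on FPKM. The test flags about 1 in 20 sets by chance where values are normally spread. FPKM was not put on the log2 scale here, so the 6 sets cannot be weighed against that rate. Dbh was at 246 FPKM in TI-6, against 21.5 to 106 FPKM in the other TI tumors. Pnmt was at 28.8 FPKM in that same tumor, against 0.00713 to 9.34 FPKM in the others. Pnmt was at 204 FPKM in TIM-4, against 0 to 76.8 FPKM in the other TIM tumors. Slc18a1 was at 30.2 FPKM in TIM-5, against 2.43 to 12.7 FPKM. In AGM-5, Slc18a2 was at 0.846 FPKM, against 1.63 to 1.94 FPKM in the other AGM glands, and Maoa was at 0.963 FPKM, against 1.39 to 1.47 FPKM.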

How the results depend on the processing

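No fold change of the 10 genes that had been called changed sign under any alternative. A filter of 1 FPKM that every library had to reach left 3 of the genes testable, and the calls were then 1 in TI vs AG, 2 in TIM vs AG, 2 in AGM vs AG and 0 in TIM vs TI, TIM vs AGM and TI vs AGM, by the loss of genes tested. With only the 2 groups of the contrast in the fit, all 10 were called in AGM vs AG. The share of all tested genes called in that fit was not taken, so this count cannot be read as particular to the 10 genes. Leaving out 1 library at a time gave 3 to 5 calls in AGM vs AG (3 without AG-2 or AG-3), 0 to 1 in the difference between TIM vs AGM and TI vs AG (1 without TIM-4), and 18 to 48 called ratios beside 43 with all libraries (18 without any one AG library). Without an AG library the exact tests of ratios allow only larger p-values, so that drop cannot show how firm the ratios are. Without the 2 tumors farthest from the median of Th in each model, 0 of 18 relations passed. No paired analysis was possible because the columns of the table could not be matched to the sample titles, and a fit with the sequencing run as a covariate was not run for the same reason. Batch correction before deposit limits the reading of genes with few reads, such as Pnmt in TI, and of levels in AGM and TIM, where some corrected values are very large. It also limits the reading of AG, the reference of every comparison against AG. The cortex marker Cyp11b2, for example, held 6 to 11 reads in AG and 311 to 665 FPKM in AGM. The part of the correction in the AG levels was not tested.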
